A study of Sus scrofa with 70 samples.

Results

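The small RNA table of 5 boar reproductive glands lists 743 miRNA entries, of which 299 are predicted and 444 are known pig miRNAs. The members described here are the predicted entries whose names begin with a numbered chromosome and whose abundance was 1 RPM or more in at least 3 of the 30 libraries. RPM is the read count of an entry after every library was scaled to the same total of reads on all miRNA entries. Of 240 predicted entries on numbered chromosomes, 116 reached this minimum and 124 did not, so every member passed a filter on low values. The 5 members just inside it, chr1_4066, chr1_2431, chr10_5200, chr1_1997 and chr3_26304, had 1.01 RPM in the last of the 3 libraries that reached it. The closest entries outside it, chr8_43533 and chr3_23981, reached it in 2 libraries and had 0.93 RPM in the next.

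The libraries came from male pigs aged 12 months, namely from the testis, the epididymis and the accessory glands (prostate, bulbourethral and vesicular). Both groups of pigs were untreated, and each gland gave 3 libraries of BMI, the Banna mini-pig inbred line, and 3 of DSE, the Diannan small-ear pig from which BMI was derived by close inbreeding. The labels do not say which libraries share a boar, and p-values then measure only the spread between these libraries, which may be technical. Bulk tissue was sequenced, so fewer cells of a type and less RNA per cell cannot be told apart.

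miRNAs are short RNAs cut from hairpin precursors, and they guide the silencing of mRNAs that pair with bases 2 to 8 of the miRNA, its seed. A predicted miRNA is a hairpin proposed by software from the way reads stack on the genome, with no entry yet in the catalogue of known miRNAs. In male glands, miRNAs of germ cells, of secretory epithelium and of smooth muscle are well known, and many are restricted to a single cell type. The targets and roles of the members themselves are not known.

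A member's name gives its chromosome and a running number of the prediction. The numbers rise from chromosome to chromosome in the order 1, 10 to 18 and 2 to 9 with no overlap, so they are not base positions. The genes beside the members were therefore not analysed here, and neither were the members' own sequences. The 116 members had 114 distinct names and lay on all 18 numbered chromosomes, with 15 on chromosome 1, 13 on chromosome 13 and 1 on chromosome 17. Of the members, 13 fell into 6 sets with identical values in every library, which left 109 distinct profiles. Similar mature sequences can share reads in the authors' counting, so entries of such a set are not separate measurements. No member had the values of a known miRNA.

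In place of the members' sequences, those of known miRNAs with the most similar levels are shown. For 5 members, named below, the 3 known miRNAs with the highest Pearson correlation of log2(RPM + 1) over the 24 libraries outside testis were taken. With ssc-miR-429 and ssc-miR-205 of the epithelial marker list, 15 were looked up, and RefSeq gives 11 of them 1 position on Sscrofa11.1, the build of the authors' files. The 8 that bear most on the members below are printed. The mature sequences run 5′ to 3′ with the seed in capitals.
ssc-miR-148a-5p: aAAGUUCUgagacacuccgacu
ssc-miR-34c: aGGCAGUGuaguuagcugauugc
ssc-miR-296-3p: aGGGUUGGgcggaggcuuucc
ssc-miR-183: uAUGGCACugguagaauucacug
ssc-miR-152: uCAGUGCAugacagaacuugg
ssc-miR-345-3p: cCCUGAACuaggggucuggag
ssc-miR-615: uCCGAGCCugggucucccucu
ssc-miR-429: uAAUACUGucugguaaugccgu

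The last of these, ssc-miR-429, is shown because it carries the seed of ssc-miR-200b in the miR-200 family. It lies at chr6:63491970-63491991 on the plus strand, in no other annotated gene. ssc-miR-148a-5p lies at chr18:46415218-46415239 on the plus strand, in no other gene. ssc-miR-34c lies at chr9:39280290-39280312 on the plus strand, in an intron of C9H11orf88 and opposite an exon of BTG4. ssc-miR-296-3p, at chr17:58970327-58970347 on the minus strand, and ssc-miR-183, at chr18:18982274-18982296 on the plus strand, lie in no other gene. ssc-miR-152 lies at chr12:24292264-24292284 on the minus strand, in an intron of COPZ2. ssc-miR-345-3p lies at chr7:121193768-121193788 on the plus strand, in no other gene. ssc-miR-615 lies at chr5:19246820-19246840 on the plus strand, in an intron of HOXC5. The 11 miRNAs with a position had 11 distinct seeds.

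The reads on all miRNA entries numbered 1294627 to 11820143 per library in testis and 13063449 to 21671650 in the other glands. One read was thus worth 0.0846 to 0.772 RPM in testis and at most 0.0766 RPM elsewhere, and low values of testis libraries were the least precise. Members took 0.399% to 0.780% of the reads in testis and 0.112% to 1.76% in the other glands, with the lowest share in DSE epididymis replicate 2. Among marker lists of known miRNAs, the stroma and smooth muscle list (miR-143 and miR-145) reached 331441 RPM in the median vesicular gland and 315644 RPM in the median prostate gland library. It was far lower in BMI vesicular gland replicate 1, at 44210 RPM, and BMI prostate gland replicate 3, at 32029 RPM, and was highest in DSE epididymis replicate 2, at 794181 RPM. All bulbourethral gland libraries were low in this list, at 13917.5 to 34627 RPM (median 21371). The muscle list was at 6008 RPM in DSE bulbourethral gland replicate 3, against a median of 275.5 RPM in that gland. These 4 libraries outside testis stand apart, and values without them are given beside some results. In testis, DSE replicates 2 and 3 had the most reads on miRNA entries, at 11820143 and 6885351, against 1294627 to 2978040 in the other testis libraries. They also had the shortest mean read lengths among testis libraries in the paper.

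Members were scarce as a rule, and a few were abundant. The median of the mean abundance was 1.18 RPM over members and 46.7 RPM over the 371 known entries past the same minimum. The mean was 10 RPM or more for 20 members and 100 RPM or more for 7. Values of at least 1 RPM were found in all 30 libraries for 11 members and in exactly 3 libraries for 14. Between 71 and 111 members were above 0 in a library.

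Testis had the highest mean for 88 members. Of the others, 12 were highest in epididymis, 10 in the bulbourethral, 4 in the vesicular and 2 in the prostate gland. The share highest in testis was 75.9% of members and 73.9% of known entries. Outside testis, epididymis led for 59 members, the bulbourethral gland for 35, the vesicular gland for 12 and the prostate gland for 10. Prostate gland led for 8.62% of members and 24.8% of known entries, and epididymis for 50.9% and 38.8%. Known entries were many times more abundant, and whether abundance plays a part in this difference was not tested.

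A member was taken as detected in a gland where 3 or more of its libraries had 1 RPM or more. Testis had 98 detected members and epididymis 42, followed by the bulbourethral gland with 36, the vesicular gland with 32 and the prostate gland with 26. Detection was limited to 1 gland for 66 members, of which testis held 54, epididymis 5, the bulbourethral gland 4 and the vesicular gland 3. At the other end, 22 members were detected in all 5 glands. Another 8 were detected in testis and epididymis alone. Outside testis, 37 members stayed below 1 RPM in all 24 libraries and 2 were at 0 in all of them. In turn, 4 members were at 0 in all 6 testis libraries.

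**Figure D1:**
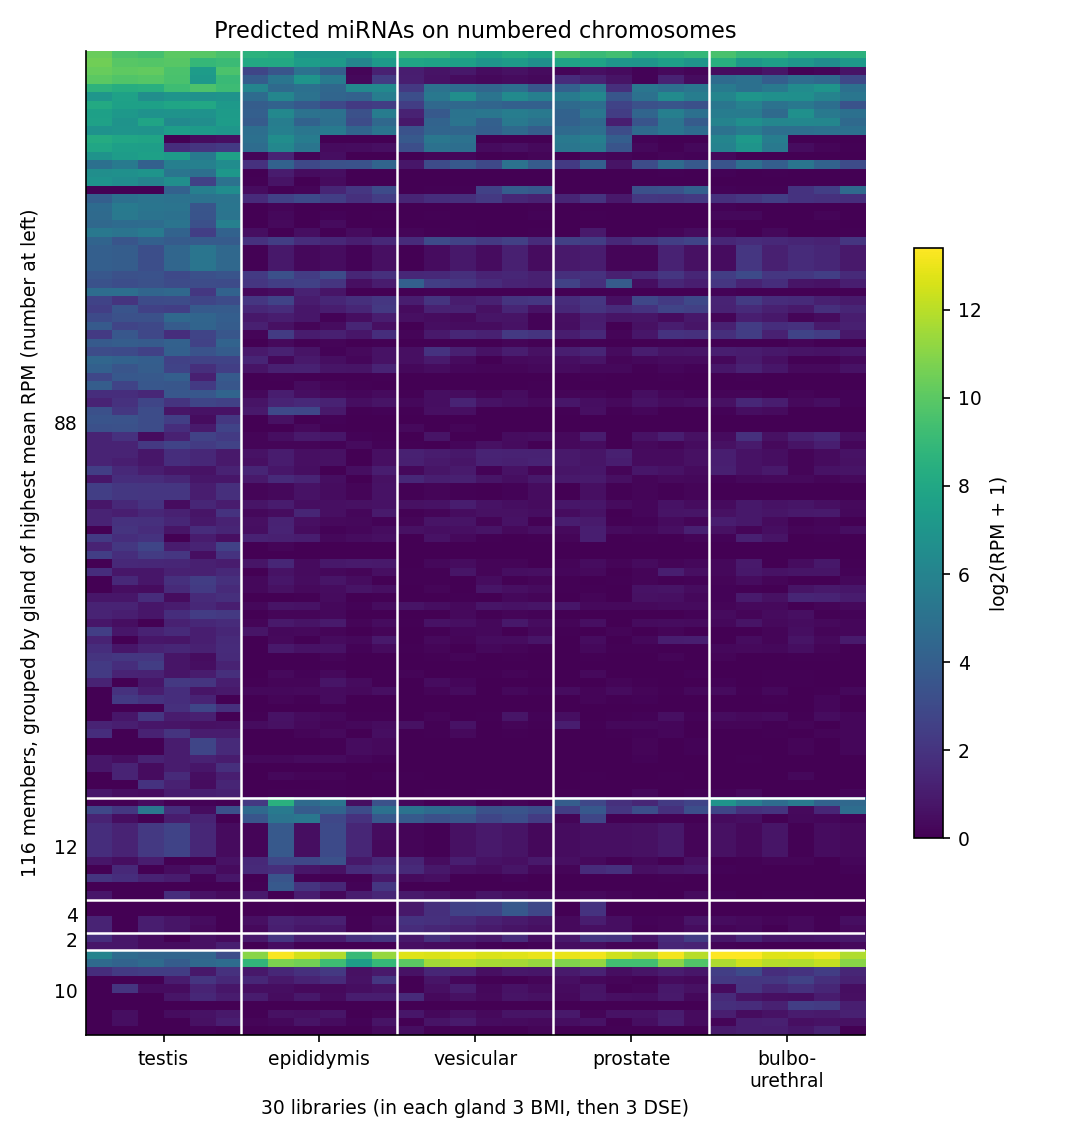
Heat map of log2(RPM + 1) for the 116 members in the 30 libraries. Columns are libraries by gland, rows are members grouped by the gland of their highest mean, and the number of members in each group is at the left (88, 12, 4, 2 and 10). The bright rows of the last group are chr5_30680 and chr6_32302, which are dark only in testis and in part of the epididymis.

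chr5_30680 and chr6_32302 were the most abundant members, with means of 5169 and 1806 RPM over the 30 libraries. Together they held 63.1% to 94.8% of the member reads in libraries outside testis and 0.581% to 1.10% in testis. chr5_30680 had 7.69 to 61.8 RPM in testis (median 20.2) and 527.8 to 9928 RPM in epididymis (median 3047). In vesicular gland its lowest, median and highest values were 6409, 6991 and 8036 RPM. In prostate gland they were 3959, 6748 and 9290 RPM, and in bulbourethral gland 3593, 8239 and 10869 RPM. Every testis library lay below every other library, and the 3 accessory glands overlapped each other.

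chr6_32302 had 14.1 to 25.4 RPM in testis (median 22.6) and 179.5 to 1747 RPM in epididymis (median 548.3). In vesicular gland its lowest, median and highest values were 1036, 3078 and 3818 RPM. In prostate gland they were 651.1, 1380 and 2422 RPM, and in bulbourethral gland 2102, 3875 and 5551 RPM. Every epididymis library lay below every bulbourethral gland library, the other pairs of the 4 glands outside testis overlapped, and every testis library lay below all of them.

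Differences between glands were tested with limma on log2(RPM + 1), and a feature was called where its adjusted p was below 0.05 and it moved by 1 or more on the log2 scale. In testis, chr5_30680 was lower than in the other 4 glands by a log2 fold change of -7.94 (SE 0.333, adjusted p = 6.71e-17), and chr6_32302 by -6.26 (SE 0.319, adjusted p = 3.76e-15). In epididymis, both were also lower than in the 3 accessory glands, by -1.27 for chr5_30680 (SE 0.341, adjusted p = 0.00732) and -1.85 for chr6_32302 (SE 0.355, adjusted p = 0.000552). Of these, chr5_30680 fell short of the fold required without BMI epididymis replicate 1 (-0.96) or DSE epididymis replicate 2 (-0.86). In bulbourethral gland, chr6_32302 was higher by 1.58 (SE 0.355, adjusted p = 0.00183). For chr5_30680 the same contrast gave 0.59 (SE 0.341, adjusted p = 0.171). None of the other gland contrasts outside testis called either member. Neither was called between the breeds in any gland, and in single glands the lowest adjusted p was that of chr5_30680 in epididymis, at -1.54 (SE 0.59, adjusted p = 0.0915). Without replicate 1 of BMI or of DSE epididymis that member was called there, at -2.17 (adjusted p = 0.0255) and -2.09 (adjusted p = 0.0253). Without DSE epididymis replicate 2, which is among the libraries that stand apart, its value fell to -0.71 and was not called.

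By Pearson correlation, the known miRNA most like both members was ssc-miR-200b, a member of the miR-200 family that keeps epithelial cells epithelial by repressing ZEB1 and ZEB2. Over the 24 libraries outside testis, its Pearson r was 0.89 with chr5_30680 and 0.82 with chr6_32302. For chr5_30680 it was followed by ssc-miR-148a-5p, an arm of the miR-148a hairpin shown above (r = 0.88), and by ssc-miR-141, also of the miR-200 family (r = 0.87). For chr6_32302 it was followed by ssc-miR-148a-5p (r = 0.74) and ssc-miR-574-3p (r = 0.74). The 2 members had an r of 0.84 with each other. By Spearman correlation the order was another, with ssc-miR-7134-5p first for chr5_30680 (rho = 0.756) and ssc-miR-574-3p first for chr6_32302 (rho = 0.734), and ssc-miR-200b at places 4 and 6. These values are descriptions over libraries that fall into glands, and all libraries share the same scaling.

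Within the 18 accessory gland libraries r was lower for ssc-miR-200b and ssc-miR-141 and higher for the other two matched epithelial markers. There chr5_30680 had an r of 0.77 with ssc-miR-200b and 0.21 with ssc-miR-141, and chr6_32302 had 0.52 and -0.135. With ssc-miR-429, whose sequence is shown above, r was 0.62 for chr5_30680 and 0.56 for chr6_32302 over the 24 libraries, and 0.65 and 0.62 within the accessory glands. With ssc-miR-205, which marks basal epithelial cells, the values were 0.22 and 0.39 over the 24 libraries and 0.48 and 0.70 within the accessory glands. Over all 30 libraries, with testis as a separate low cluster, r with ssc-miR-200b was 0.97 for both. ssc-miR-148a-5p did not share the low level in testis, at 276.4 to 380.5 RPM there, and its r with chr5_30680 over 30 libraries was 0.13.

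The summed level of the epithelial marker list was lowest in testis and next lowest in epididymis by median, as both members were. Of its 7 names, 4 were matched (ssc-miR-200b, ssc-miR-141, ssc-miR-429 and ssc-miR-205), none of them at 0, and the names miR-200a, miR-200c and miR-203 were not. The list was at 189.3 to 313.6 RPM in testis and 1801 to 22744 RPM in epididymis. Among the accessory glands, it was at 31007 to 43441 RPM in the vesicular, 7106 to 37028 RPM in the prostate and 9977 to 38484 RPM in the bulbourethral gland. Its median there was highest in the vesicular gland, at 36932 RPM against 23283 RPM in the bulbourethral gland, whereas both members had their highest median in the bulbourethral gland. Nearly all of the sum was ssc-miR-200b, with a median of 36056 RPM in the vesicular gland. Taken singly, ssc-miR-429 had its highest median in the bulbourethral gland (311.2 RPM, against 232.4 RPM in the vesicular gland). The medians of ssc-miR-429 and ssc-miR-205 were higher in epididymis, at 209.8 and 138.3 RPM, than in prostate gland, at 134.2 and 31.6 RPM. The lowest epididymis library of the summed list, DSE replicate 2, and the highest, BMI replicate 2, were also the lowest and the highest of chr5_30680 and of chr6_32302. The part of epithelial content in the values of both members was not tested. Whether either member belongs to the miR-200 family was not tested, since no sequence or position of a member was used.

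**Figure D2:**
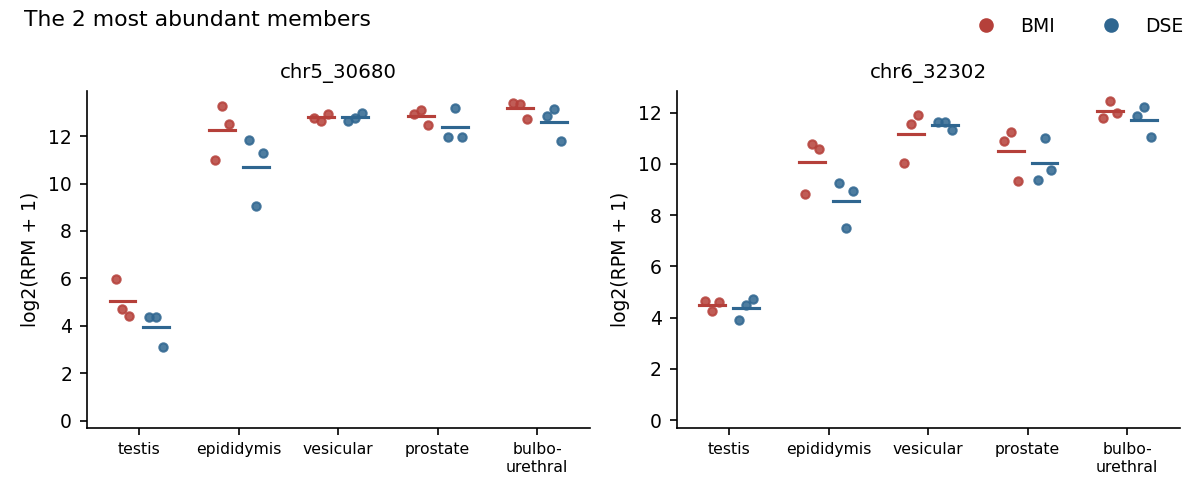
log2(RPM + 1) of chr5_30680 and chr6_32302 in each gland, with a point for each library (BMI red, DSE blue) and a line at the mean of each group of 3. All 6 testis libraries lie below all others, and epididymis libraries spread from 527.8 to 9928 RPM for chr5_30680.

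Outside testis, 64 of the 116 members reached the minimum in the 24 libraries and were tested with 372 other entries. A member that reached it only through the gland where it was high had to differ there, so the counts below are descriptions. In epididymis, 10 members were higher than in the other 3 glands, or 15.6% of those tested, and 14.2% of all entries tested were called in this direction. Another 3 members were lower, or 4.69%, against 3.21% of all entries. In vesicular gland, 3 members were higher (4.69%, with 4.59% of all entries) and 3 were lower (4.69%, with 17.2% of all entries). In prostate gland, no member was higher, with 4.59% of all entries, and 2 were lower (3.12%, with 2.75% of all entries). The unadjusted limma p was below 0.05 in prostate gland for 12 of the 64 members and for 100 of all 436 entries. There edgeR on recovered reads called 1 member higher (1.59%, with 3% of all entries) and 5 lower (7.94%, with 3.92% of all entries). In bulbourethral gland, 8 members were higher (12.5%, with 8.49% of all entries) and 2 were lower (3.12%, with 10.3% of all entries).

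These directions rest in part on the scale, since size factors shifted the log2 fold changes of all entries by a median of -0.21 in epididymis, 0.34 in the vesicular, -0.15 in the prostate and 0.01 in the bulbourethral gland. With them, 6 members were higher in epididymis (9.38%, with 8.26% of all entries) and 4 lower (6.25%, with 5.5%). In vesicular gland, 6 were then higher (9.38%, with 11.2% of all entries) and 2 lower (3.12%, with 10.3%). In prostate gland none was higher (2.75% of all entries) and 2 were lower (3.12%, with 2.98%), and in bulbourethral gland 10 were higher (15.6%, with 9.63%) and 2 lower (3.12%, with 10.8%).

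Beside the counts on the RPM scale, the median log2 fold change in epididymis was 0.03 over members and 0.15 over all entries tested. In the vesicular gland the medians were -0.21 and -0.30, in the prostate gland -0.24 and 0.10, and in the bulbourethral gland 0.10 and -0.05. Without the 4 libraries that stand apart, members called rose from 2 to 4 in prostate gland and from 10 to 16 in bulbourethral gland, while the count in vesicular gland stayed at 6. Epididymis had 11 called members then, of which 7 were among its 13. Under a pseudocount of 0.1, which gives low values more weight, 25 members were called in the bulbourethral gland, 23 in epididymis, 15 in the vesicular and 9 in the prostate gland. For this setting and without the 4 libraries, the share of all entries called was not taken. These counts therefore do not set members apart from other entries.

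chr14_13709 had the widest pattern among the glands outside testis. In epididymis its lowest, median and highest values were 0.42, 16.4 and 364.7 RPM, and in bulbourethral gland 17.4, 34.0 and 115.8 RPM. In prostate gland they were 1.71, 4.72 and 14.5 RPM, and no vesicular gland library exceeded 0.31 RPM. All 6 vesicular gland libraries lay below all 18 others, with a log2 fold change of -3.77. The libraries at or above the minimum all came from the other 3 glands, so this value is a description. In bulbourethral gland chr14_13709 was higher by 2.99 (SE 0.64, adjusted p = 0.00126), although BMI epididymis replicate 2 lay above every bulbourethral gland library.

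In testis chr14_13709 had 2 reads in all over the 6 libraries, against 11011 in the other 24. The ratio of the pooled levels was 386.9, with a 95% counting interval of 107.1 to 3195, and such intervals cover counting error only. Without BMI epididymis replicate 2 the ratio was 214.2 (59.3 to 1769), and without BMI testis replicate 3, which held 1 of the 2 reads, it was 699.3 (125.5 to 27620). Its nearest known miRNA outside testis was ssc-miR-34c, a p53-regulated miRNA abundant in male germ cells (r = 0.89). The next were ssc-miR-296-3p (r = 0.83) and ssc-miR-183 (r = 0.83). In testis the patterns parted, since ssc-miR-34c had 1218 to 4939 RPM there and chr14_13709 at most 0.37 RPM. Over 30 libraries their r was -0.09.

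chr13_10330 was found in epididymis alone. Its values were 0.07, 12.4 and 3.02 RPM in the 3 BMI libraries and 1.84, 0.09 and 3.31 RPM in the 3 DSE libraries. It was at 0 in the other 24 libraries, with 340 reads in epididymis in all. Against 18 libraries at 0 in the accessory glands, with a floor of 3 reads over that group, it was at least 302-fold higher, and at least 169.3-fold higher without BMI epididymis replicate 2. It reached the minimum through this gland alone, so its log2 fold change of 1.60 on the RPM + 1 scale is a description. Both epididymis libraries under 0.1 RPM, BMI replicate 1 and DSE replicate 2, were also the lowest of the 6 for chr14_13709 and for chr6_32302. The nearest known miRNAs outside testis by Pearson were ssc-miR-345-3p (r = 0.82), ssc-miR-615 (r = 0.79) and ssc-miR-1839-5p (r = 0.78), all 3 also present in testis. By Spearman, ssc-miR-615 was first (rho = 0.753) and ssc-miR-345-3p at place 17. chr13_10330 was at 0 in 18 of the 24 libraries correlated.

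chr2_19881 was found in bulbourethral gland alone. Its values were 2.45, 2.29 and 1.37 RPM in BMI and 4.71, 4.01 and 1.21 RPM in DSE, and 0 in the other 24 libraries. With 242 reads against 0 over the other glands outside testis, it was at least 273-fold higher. It also reached the minimum through this gland alone, and its log2 fold change of 1.79 is a description. DSE bulbourethral gland replicate 3, which had the high muscle list, was the lowest of the 6. The nearest known miRNAs by Pearson were ssc-miR-574-5p (r = 0.84), ssc-miR-152, of the family that targets the DNA methyltransferase DNMT1 (r = 0.82), and ssc-miR-1468 (r = 0.79), none of them confined to this gland. By Spearman, ssc-miR-375 was first (rho = 0.74). chr2_19881 was at 0 in 18 of the 24 libraries correlated.

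Other called members overlapped between glands and were chosen for naming after their values were seen. The identical entries chr14_13765 and chr14_13777 had 0.79 to 12.1 RPM in vesicular gland and 0 in testis and bulbourethral gland. Their log2 fold change in vesicular gland was 2.31 (SE 0.253, adjusted p = 1.46e-06). A single prostate gland library, at 2.88 RPM, overlapped the vesicular gland.

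chr3_26315 was shared by epididymis, at 2.80 to 38.2 RPM, and vesicular gland, at 4.01 to 13.1 RPM. Its medians in the other glands were 0.70 RPM in testis, 0.03 RPM in prostate gland and 0.20 RPM in bulbourethral gland. It was called higher in epididymis by 2.42 (SE 0.333, adjusted p = 1.4e-05) and in vesicular gland by 1.66 (SE 0.333, adjusted p = 0.00045). It was called lower in both other glands outside testis, and in bulbourethral gland this is a description, since no library of that gland reached the minimum.

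chr10_4918 was higher in bulbourethral gland by 1.41 (SE 0.208, adjusted p = 3.42e-05), at 1.32 to 5.19 RPM. Epididymis overlapped it with 0.56 to 3.31 RPM, while vesicular and prostate gland stayed at or under 0.70 RPM. chr9_45193, at 22.8 to 99.9 RPM in bulbourethral gland, was higher there by 1.88 (SE 0.535, adjusted p = 0.0115). Of the 10 members higher in epididymis, 4 were the entries named chr8_41440 and chr8_41441, whose values were nearly the same. They had 0.14 to 12.4 RPM in epididymis and at most 0.92 RPM in the accessory glands. All 4 reached the minimum through epididymis alone and were not called with no filter, with adjusted p of 0.0649 to 0.0707. The calls were also lost with size factors and without DSE vesicular gland replicate 3 or DSE prostate gland replicate 3.

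The comparison with the most calls was that of testis. Between testis and the other 4 glands, all 116 members and 410 other entries were tested. In testis, 63 members were higher, or 54.3%, with 59.1% of all entries called in this direction. The 4 lower members, or 3.45%, were chr5_30680, chr6_32302, chr14_13709 and chr3_26315, with 4.18% of all entries called lower. Since 54 members were detected in testis alone, this count is a description and no support. Among the 67 called members, 27 reached the minimum through the higher side alone. The scale itself moved between these glands, since size factors from the median of ratios shifted the log2 fold changes of all entries by a median of -1.46. With these size factors 29 members were higher (25%, with 21.5% of all entries) and 6 lower (5.17%, with 16.7% of all entries). edgeR, with a median shift of -1.89, called 52 members higher (44.8%, with 25.1% of all entries) and 13 lower (11.2%, with 26.8% of all entries). On the RPM scale, the median log2 fold change was 1.10 over members and 1.34 over all entries.

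Of the members higher in testis, 41 had all 6 testis libraries above all 24 others, or 35.3% of members tested, with 30.8% of all entries. Their leading members were chr16_17803, chr11_5667 and chr9_43949, and all 3 were also higher in testis with size factors and with edgeR. chr16_17803 had 170.2, 929.4 and 1234 RPM as its lowest, median and highest values in testis and at most 32.1 RPM elsewhere. Its log2 fold change was 8.48 (SE 0.356, adjusted p = 6.74e-17). chr11_5667 had 43.4, 165.2 and 201.1 RPM in testis and at most 1.56 RPM elsewhere, with a log2 fold change of 6.90 (SE 0.211, adjusted p = 8.07e-20). chr9_43949 had 149.4, 809.7 and 1057 RPM in testis and at most 122.4 RPM elsewhere, with a log2 fold change of 6.82 (SE 0.475, adjusted p = 1.79e-12). DSE testis replicate 2, the testis library with the most reads on miRNA entries, was the lowest of the 6 for all 3 members.

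Outside testis these 3 members parted. In epididymis chr16_17803 had 6.02, 10.7 and 32.1 RPM in BMI and 14.4, 0.14 and 1.33 RPM in DSE. chr9_43949 had 14.0, 36.3 and 122.4 RPM in BMI and 42.9, 0.23 and 4.0 RPM in DSE, so both ranked the 6 libraries in one order. The ratio of chr9_43949 to chr16_17803 was 0.706 to 0.979 in testis and 1.64 to 3.82 in epididymis. In bulbourethral gland chr9_43949 had 6.51 to 30.1 RPM and chr16_17803 at most 0.72 RPM. chr11_5667 had at most 1.56 RPM in epididymis and 0.23 RPM in bulbourethral gland.

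The list of germ and Sertoli cell miRNAs moved in part with them. Of its 4 names 2 were matched, with 3 entries and none at 0. The list was at 7797 to 13631 RPM in testis and at 2.2 to 116.4 RPM in epididymis, with a median of 46.8 RPM. The 3 epididymis libraries with the lowest list, DSE replicates 2 and 3 and BMI replicate 1, were also the lowest of chr16_17803 and of chr9_43949. In bulbourethral gland the list was at 35.7 to 59.8 RPM, and in vesicular and prostate gland at most 10.9 RPM. The part of germ cells in these values was not tested.

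chr13_8960 and chr3_25171 followed in mean abundance and were present in every library. chr13_8960 had 693.4 to 1284 RPM in testis and 131.4 to 375.1 RPM in epididymis, where it was lower than in the accessory glands by -1.05 (SE 0.207, adjusted p = 0.000665). It fell short of the fold required there without BMI epididymis replicate 3 (-0.82) or DSE epididymis replicate 1 (-0.96). Across the accessory glands it ran from 229.4 to 796.3 RPM. chr3_25171 had 484.5 to 1427 RPM in testis and 68.5 to 341.6 RPM elsewhere. Its log2 fold changes among the 4 glands outside testis lay between -0.045 and 0.036 (SE 0.219), and none was called. In testis it was higher by 2.35 (SE 0.204, adjusted p = 1.32e-10). With size factors the value of chr3_25171 was 0.70, below the fold required, and with edgeR it was 0.35 (adjusted p = 0.0668). chr13_8960 was higher in testis by 1.33 (SE 0.187, adjusted p = 5.21e-07) on the RPM scale, but had -0.31 with size factors (adjusted p = 0.116) and -0.70 with edgeR (adjusted p = 0.00244), so its direction rests on the scale.

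**Figure D3:**
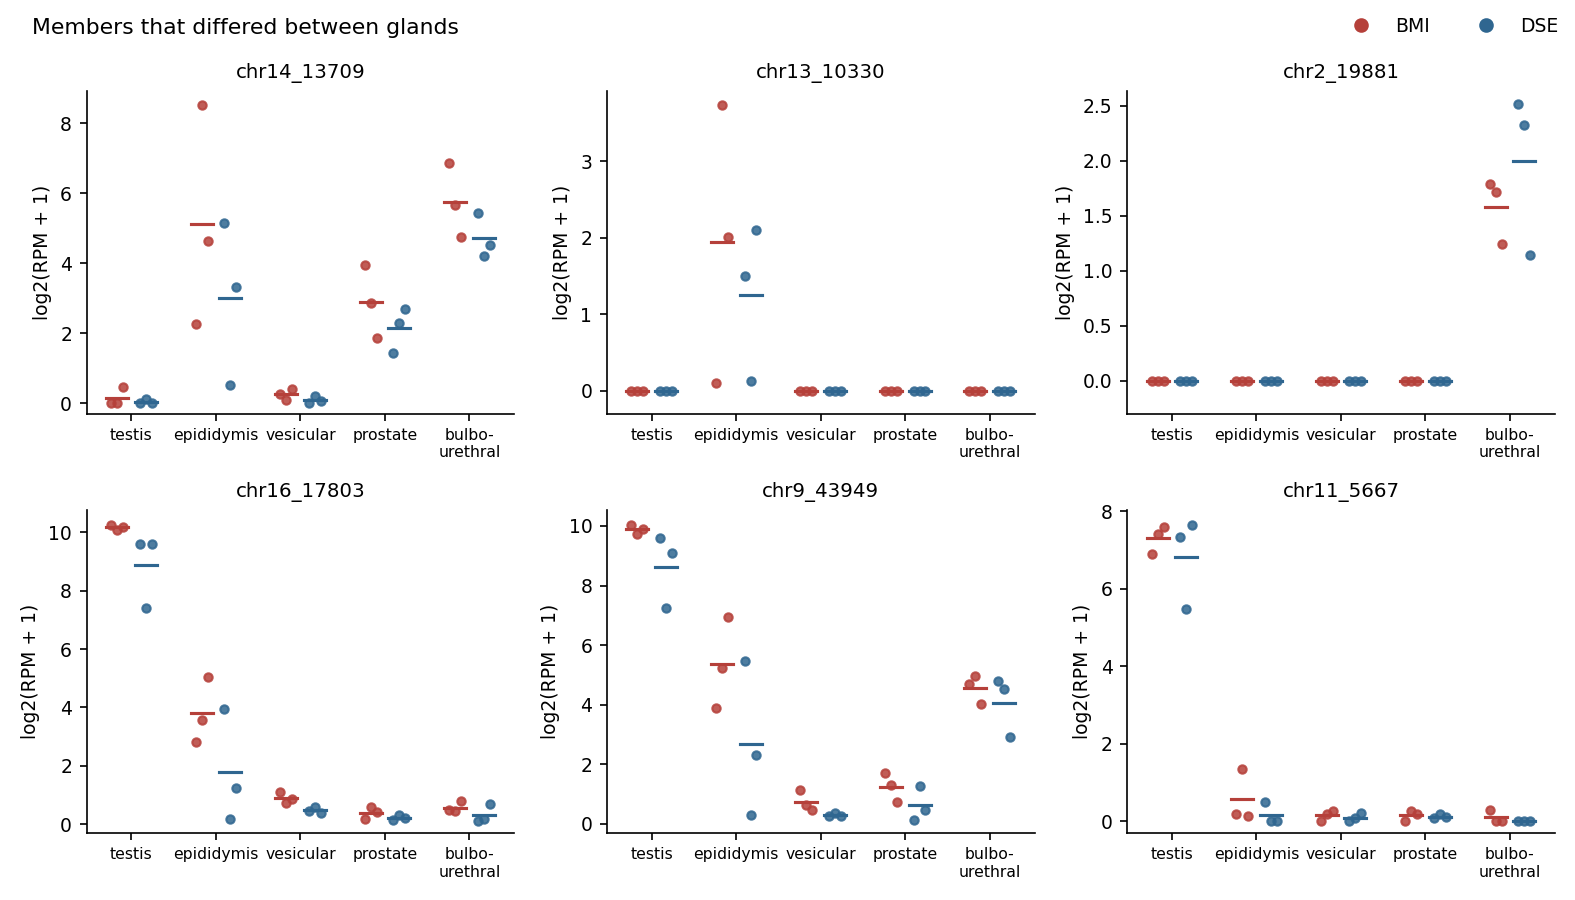
log2(RPM + 1) in each gland of 6 members named by the rule for glands, with a point for each library (BMI red, DSE blue) and a line at the mean of each group of 3. The vertical axis differs between panels. chr13_10330 and chr2_19881 are above 0 in 1 gland each, and chr16_17803, chr9_43949 and chr11_5667 are highest in testis, where chr14_13709 is near 0.

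There were 3 members that differed between the breeds in every gland. chr8_43390 and chr13_9416 were found in BMI and close to 0 in DSE, and chr1_2528 was found in DSE and close to 0 in BMI. For each of the 3, every library of the higher breed lay above every library of the lower breed in all 5 glands. Outside testis each of them reached the minimum through the higher breed alone, and so did chr8_43390 and chr1_2528 in testis, so their p-values are descriptions. With no filter on low values all 3 were still called in each gland.

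chr8_43390 had 301.3, 247.4 and 227.4 RPM in BMI testis and 0, 0.34 and 0.44 RPM in DSE testis. In BMI epididymis it had 30.4, 94.5 and 48.8 RPM, in vesicular gland 12.6, 38.3 and 32.2 RPM, in prostate gland 42.0, 53.8 and 14.8 RPM and in bulbourethral gland 67.7, 152.0 and 51.1 RPM. Its highest DSE value outside testis was 0.09 RPM, and 11 of the 12 DSE libraries there were at 0. DSE minus BMI, the log2 fold change was -7.69 in testis (SE 0.236, adjusted p = 3.61e-06) and -5.45 on average over the 4 other glands (SE 0.238, adjusted p = 1.29e-13). In DSE epididymis, vesicular gland and bulbourethral gland, with no read, its level was at least 1152-fold, 542.6-fold and 1471-fold lower than in BMI, with a floor of 3 reads over each group. Left without DSE replicate 2 of epididymis or of vesicular gland these bounds were 748.4-fold and 358.3-fold. In bulbourethral gland the bound was 927.2-fold without DSE replicate 3 and 958.6-fold without BMI replicate 2.

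chr13_9416 had 240.2, 191.6 and 180.3 RPM in BMI testis and 2.35, 3.22 and 3.92 RPM in DSE testis. Outside testis it ran from 8.45 to 122.4 RPM in the 12 BMI libraries, with a median of 36.6 RPM, and from 0.06 to 0.49 RPM in the 12 DSE libraries. The log2 fold change was -5.63 in testis (SE 0.237, adjusted p = 1.63e-05) and -4.82 on average over the 4 other glands (SE 0.256, adjusted p = 3.22e-12). Over the 15 BMI libraries its level was 0.673 to 0.895 times that of chr8_43390, with a median of 0.805 and an r of 0.997. Whether the 2 entries share reads was not tested, and they differed in DSE testis, where chr13_9416 kept a low level.

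chr1_2528 ran the other way. It had no read in BMI testis and 17.1, 54.6 and 90.1 RPM in DSE testis, at least 133.5-fold higher with a floor of 3 reads over the group. The bound was 81.3-fold without BMI testis replicate 2 and 78.5-fold without BMI testis replicate 3. In DSE it had 1.59, 3.36 and 7.46 RPM in epididymis, 5.07, 14.3 and 11.8 RPM in vesicular gland, 8.58, 9.37 and 16.0 RPM in prostate gland and 2.93, 4.69 and 23.2 RPM in bulbourethral gland. The 12 BMI libraries outside testis had at most 0.34 RPM. The log2 fold change was 5.50 in testis (SE 0.553, adjusted p = 0.00384) and 2.95 on average over the 4 other glands (SE 0.254, adjusted p = 2.15e-08). DSE replicate 1 was the lowest of the 3 DSE libraries in each gland.

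**Figure D4:**
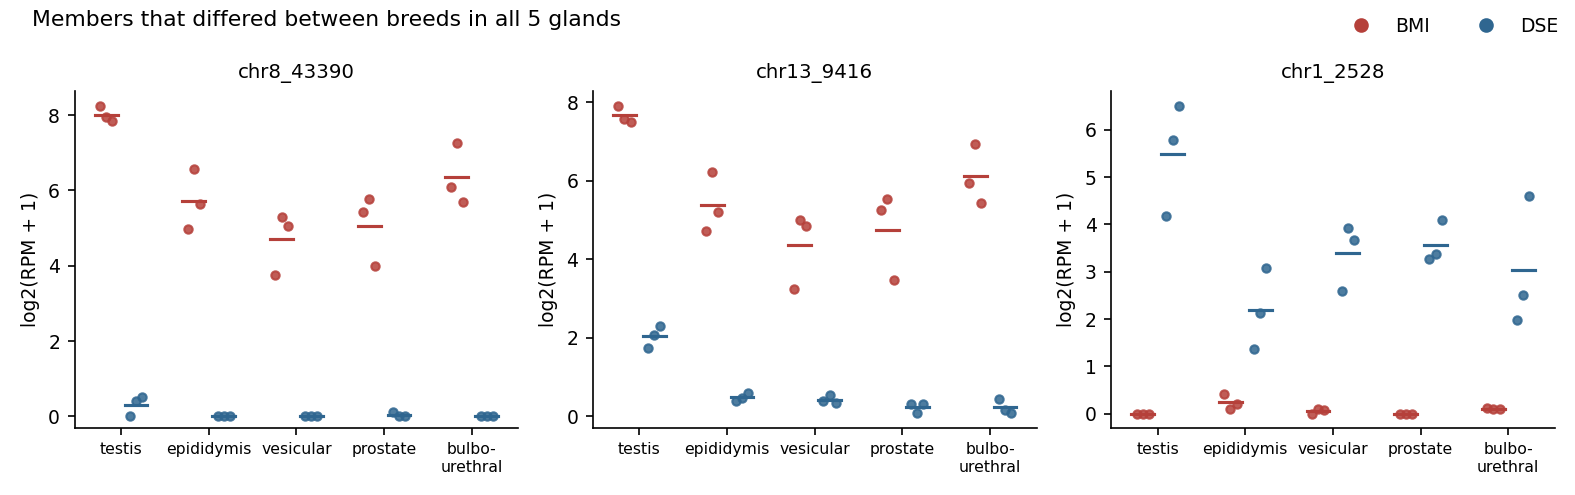
log2(RPM + 1) in each gland of the 3 members that differed between the breeds in every gland, with a point for each library (BMI red, DSE blue) and a line at the mean of each group of 3. BMI lies above DSE for chr8_43390 and chr13_9416 and below it for chr1_2528, without overlap in any gland.

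Between the breeds, chr8_43390, chr13_9416 and chr1_2528 were the 3 members called in vesicular gland, prostate gland and bulbourethral gland, out of 64 tested. The share of all entries called was 1.38%, 0.688% and 4.59% in these glands. The 3 calls in prostate gland were also the sole calls among all 436 entries. In epididymis chr16_17803 was called as well, which made 4 members, with 7.57% of all entries. The count in epididymis was 11 without BMI epididymis replicate 1, 8 without DSE epididymis replicate 1 and 7 with all 30 libraries in one fit, and it was 2 without BMI replicate 2 or 3 or DSE replicate 2. For these settings the share of all entries called was not taken. chr16_17803 was lower in DSE by -2.02 (SE 0.618, adjusted p = 0.0475). This call was lost when any of 19 of the 24 libraries was left out, with size factors (adjusted p = 0.388) and with epididymis fitted alone (adjusted p = 0.349). Without DSE epididymis replicate 2 the log2 fold change was -1.22 (adjusted p = 0.33), and without BMI epididymis replicate 3, its highest epididymis library, it was -1.40 (adjusted p = 0.134). edgeR, which could not use that library, gave 0.16 (adjusted p = 0.999).

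Averaged over the 4 glands, 4 members were called, with 8.72% of all entries, of which 1 was higher in DSE and 37 were lower. This contrast treats all libraries of a breed as independent, although those of different glands may come from the same boar. With size factors 6 members were called, with 2.06% of all entries, of which 7 were higher and 2 lower. The 3 members then added, chr13_10986, chr3_25490 and chr9_43752, were higher in DSE by 1.30 to 1.43 with size factors, and by 0.73 to 0.90 on the RPM scale, where they were not called. In single glands the share of all entries called with size factors was 0.917% in epididymis, 1.38% in the vesicular, 0.917% in the prostate and 1.15% in the bulbourethral gland. On the RPM scale, beside chr8_43390, chr13_9416 and chr1_2528, chr3_23861 was lower in DSE by -1.34 (SE 0.251, adjusted p = 0.000719). It had 1.53 to 16.0 RPM in BMI (median 3.99) and 0.42 to 3.12 RPM in DSE (median 1.19), and the breeds overlapped. Its highest values, 16.0 and 13.6 RPM, were in BMI vesicular gland replicate 1 and BMI prostate gland replicate 3, whose stromal markers were low for their glands. Without the 4 libraries that stand apart its log2 fold change was -1.01 (adjusted p = 0.00104). With size factors, which shifted the log2 fold changes of all entries by a median of 0.53 in this contrast, it was at -0.98 and no longer called, and edgeR gave -1.34 with an adjusted p of 0.0894. The median shift was 0.20 to 0.74 in the single glands, and chr8_43390, chr13_9416 and chr1_2528 were still called there. The call of chr1_2528 in epididymis was lost without BMI replicate 2 or 3 or DSE replicate 2 or 3 of that gland, with adjusted p up to 0.104. With each gland fitted alone, chr1_2528 was also not called in epididymis (adjusted p = 0.264) and in bulbourethral gland, at 2.92 (adjusted p = 0.0587). In the fit of all 4 glands, its bulbourethral gland value fell to 2.14 without DSE replicate 3 of that gland and was still called. That library is among those that stand apart.

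In testis 98 members reached the minimum, and 15 of them, or 15.3%, were called between the breeds, with 9.48% of all entries. With no filter 8 members were called, and with all 30 libraries in one fit 25. For these settings, and for the fits with a library left out below, the share of all entries called was not taken. Of the 15, 8 were higher in DSE (8.16%, with 4.95% of all entries) and 7 were lower (7.14%, with 4.54% of all entries). None of the 15 overlapped between the breeds, and neither did any of the 46 entries called in all. Among the 15 members, 8 reached the minimum through the higher breed alone, so the count is a description and no support, and 4 of these 8 were called with no filter. BMI testis libraries had fewer reads on miRNA entries, at 1294627 to 2722580 against 2978040 to 11820143 in DSE. Total reads per testis library in the paper were similar in both breeds. The number of reads on miRNA entries and breed cannot be told apart for members near 0. DSE replicates 2 and 3 had the shortest mean read lengths among testis libraries in the paper, and they were not left out together. Leaving out any testis library lowered the count, to 10 without DSE replicate 3, 6 without BMI replicate 3 or DSE replicate 1 or 2, and 5 without BMI replicate 1 or 2.

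Beside chr8_43390 and chr13_9416, the member most reduced in DSE testis was chr14_14086. It had 8.50, 3.48 and 7.71 RPM in BMI and 0.67, 0.59 and 0.58 RPM in DSE, a log2 fold change of -2.16. It reached the minimum through the BMI libraries alone, so this value is a description. In epididymis it had 0.89, 6.68 and 6.20 RPM in BMI and 0.92, 0.05 and 0.10 RPM in DSE, with an overlap, and no accessory gland library exceeded 0.49 RPM.

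Beside chr1_2528, the members most raised in DSE testis were chr4_28420 and chr4_27487. chr4_28420 had 11.4, 11.3 and 18.7 RPM in DSE and 2.32, 2.32 and 1.84 RPM in BMI, a log2 fold change of 2.20 (SE 0.254, adjusted p = 0.0058). chr4_27487 had 2.69, 6.01 and 2.47 RPM in DSE and no read in BMI, with a log2 fold change of 2.16, a description since the DSE libraries alone reached the minimum. With a floor of 3 reads over the BMI libraries, this is at least 9.74-fold higher. The bound was 5.58-fold without DSE replicate 2, 5.72-fold without BMI replicate 3 and 5.93-fold without BMI replicate 2. Both were low outside testis, with at most 1.07 RPM for chr4_28420 and 0.19 RPM for chr4_27487.

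Whether the breed difference itself differed between the 4 glands outside testis was tested by the interaction in limma. No member and none of all 436 entries was called, a share of 0.0%. The unadjusted p was below 0.05 for 2 members, and edgeR on recovered reads also called none. The lowest p, of the identical entries chr14_13765 and chr14_13777, was 0.0292 (adjusted p = 0.779). Whether breed differences in testis differ from those in the other glands was not tested.

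**Figure D5:**
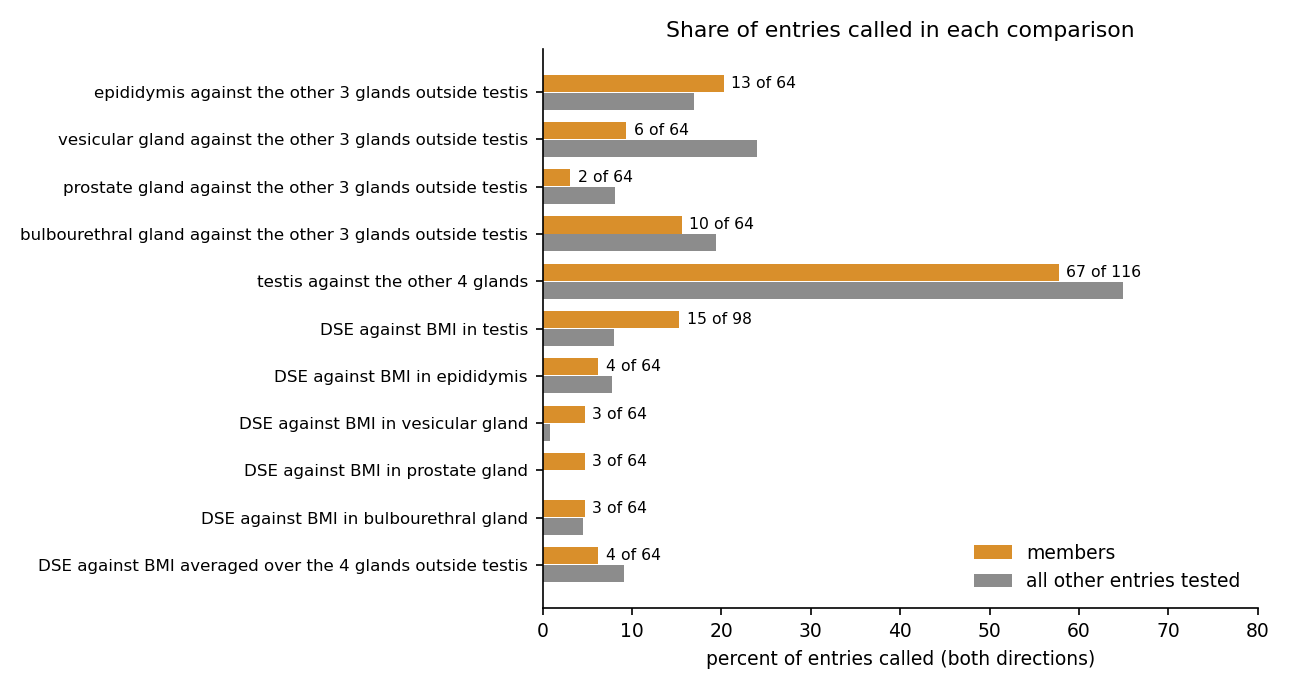
Percent of entries called in each comparison, for members (orange, with the number called of the number tested) and for all other entries tested (grey). Bars count both directions and start at 0. The longest bars are those of testis against the other 4 glands, and members of DSE against BMI in testis were called in 15 of 98 cases.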

How the data were processed

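Small RNA libraries of 5 glands of BMI and DSE pigs, 3 per breed and gland, were analysed. The values were deposited by the authors as RPM with 2 decimals. Per the study's methods, adapters were trimmed with cutadapt, other small RNAs removed with bowtie (1.3.1 in the submitters' processing notes), and known and predicted miRNAs counted with miRDeep2, whose counter can give a read to several similar entries. The build was susScr11 (Sscrofa11.1).

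Entries that reached 1 RPM in 3 or more of the fitted libraries were tested as log2(RPM + 1) with limma 3.58.1 (R 4.3.3), without a replicate block, over all entries, with Benjamini-Hochberg adjustment. Contrasts used 8 breed and gland groups outside testis, 10 for testis against the rest and the 6 testis libraries alone for breeds. A fold change on this scale understates the change of low entries. The value of 1 read, found from the spacing of low values, gave whole reads (tolerance 0.1 read) in 28 libraries, with 96.8% to 100% of low values whole, and tested with edgeR 4.0.16 as an alternative. The other 2, BMI epididymis replicate 3 and DSE vesicular gland replicate 2, were left out of edgeR.

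Members named were the 5 most abundant, up to 3 in each direction per gland among called members without overlap, called members of each breed contrast (all if 5 or fewer, otherwise 3 in each direction) and chr5_30680 and chr6_32302. The members and lists were chosen with earlier results of these data known. On simulated data for a gland contrast of 424 entries, with 200 changed by 2 on the log2 scale, limma recovered 93% of raised and 73% of lowered entries, and for a breed contrast of the same size and change 77% and 62%. The other tables of the series were not used here.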

Additional observations from a re-analysis of the deposited data

How the results depend on the processing

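Alternatives were a pseudocount of 0.1, size factors, no filter, a limma trend, a replicate block, edgeR on recovered reads, other sets of libraries and leaving out each library. Leaving out the 4 libraries that stand apart was added after the data were seen. Members called in prostate gland then numbered 4, and in bulbourethral gland 16. With a pseudocount of 0.1, members called numbered 25 in the bulbourethral gland, 23 in epididymis, 15 in the vesicular gland and 9 in the prostate gland against the other glands, 101 in testis and 11 between breeds averaged over 4 glands. With edgeR they numbered 24 in the bulbourethral, 14 in the vesicular and 6 in the prostate gland. In the bulbourethral gland 28.6% of members were higher and 9.52% lower, with 15.7% and 13.1% of all entries. In the vesicular gland the shares were 15.9% and 6.35%, with 15% and 15.2% of all entries. In the prostate gland they were 1.59% and 7.94%, with 3% and 3.92% of all entries. With size factors they numbered 35 in testis and 5 between breeds in vesicular gland. Between breeds in testis, no filter gave 8 and all 30 libraries in one fit gave 25. That fit gave 7 between breeds in epididymis and 6 in vesicular gland, and epididymis fitted alone gave 2. The cause was not tested. The share of all entries called was taken for the main setting, size factors and edgeR alone. Counts under other settings, and with a library left out, do not set members apart from other entries.

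Leaving out 1 library gave 9 to 14 members called in epididymis and in the bulbourethral gland against the other glands, 5 to 8 in the vesicular gland, 2 to 3 in the prostate gland and 63 to 73 in testis. Between breeds it gave 5 to 10 in testis, 2 to 11 in epididymis, 3 in the bulbourethral gland, 3 to 5 in the vesicular gland, 3 to 4 in the prostate gland and 4 to 7 averaged. The interaction stayed at 0. The epididymis count was 11 without BMI epididymis replicate 1, 8 without DSE epididymis replicate 1 and 2 without BMI replicate 2 or 3 or DSE replicate 2. The averaged count was 7 without BMI epididymis replicate 1, and that of vesicular gland was 5 without BMI vesicular gland replicate 3 or BMI prostate gland replicate 2. In testis it was 5 without BMI replicate 1 or 2 and 6 without BMI replicate 3 or DSE replicate 1 or 2.

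For the printed differences of named members, 1689 alternative values kept direction and call, 71 lost the call, 8 gained one and 3 reversed. These were chr16_17803 between breeds in epididymis with edgeR, at 0.16, a setting that also lacks BMI epididymis replicate 3, and chr13_8960 in testis with size factors, at -0.314, and with edgeR, at -0.701. Without the 4 libraries that stand apart, chr5_30680 and chr13_8960 fell short of the fold in epididymis, at -0.955 and -0.978. The call of chr1_2528 in epididymis was lost without BMI epididymis replicate 2 or 3 or DSE epididymis replicate 2 or 3, with adjusted p up to 0.104, and when epididymis was fitted alone (adjusted p = 0.264). In bulbourethral gland it was lost when that gland was fitted alone (adjusted p = 0.0587).

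Replicate numbers were not treated as pairing the samples. Deviations of libraries of the same breed and number had a median correlation of 0.042 over 60 pairs, from -0.605 to 0.552, with 22 pairs over 0.1. Of 30 libraries, 19 correlated best on average with their own number among the 3, which is more than 1 in 3. Libraries of the same number may thus share a boar, and this was not tested. With a replicate block, 12 members were called between breeds in testis and 3 in epididymis, where chr16_17803 was lost at -2.02 (adjusted p = 0.0543). Other counts of called members kept their value under the block. That block used the same numbers for both breeds, and a block within breed was run for gland contrasts alone. Breed p-values averaged over 4 glands therefore treat the libraries of a breed as independent and may be too small. Under Spearman, ssc-miR-200b took place 4 for chr5_30680 and place 6 for chr6_32302, and of the 3 most alike names 0 and 1 were kept. For chr13_10330 1 of the 3 names was kept, for chr2_19881 2 and for chr14_13709 3. At least 1 RPM in at least 6 libraries left 79 members. The number of reads on miRNA entries limits members near 0 in testis most.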
